A study of Mus musculus with 8 samples.

Results

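Aminoacyl-tRNA synthetases join each amino acid to its tRNA and so supply the ribosome with charged tRNA. They fall into class I and class II, which differ in the fold of the catalytic domain. Most amino acids are charged by one enzyme in the cytosol and by another, encoded by a separate nuclear gene and imported, in mitochondria. Several cytosolic enzymes are held in a multi-synthetase complex, and many synthetase genes are known targets of ATF4, the transcription factor of the amino acid response. Here 36 synthetase genes of the 55401 genes in the tables were followed, listed by symbol as 20 cytosolic and 16 mitochondrial enzymes. The list was chosen with earlier results of these data known. Gars and Kars, listed with the cytosolic enzymes, are known to encode the mitochondrial form as well.

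The RNA came from AML12 cells, a hepatocyte line derived from a mouse transgenic for human transforming growth factor alpha. The 4 Opti-ELF-WMF dishes were kept for 1 h under a weak magnetic field with a peak of 100 mG, applied as 4 ms pulses at frequencies stepping from 1 to 8 Hz, and the 4 control dishes were left unexposed. The labels name no allele, and both groups grew in DMEM/F-12 medium with serum, dexamethasone and insulin-transferrin-selenite. Per the study's methods, control cells stood in another incubator of the same model with the stimulator off, so the incubator and the field cannot be told apart. The study used the series to ask which genes respond at 1 h.

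Values are TPM, a relative transcript abundance whose calculation divides reads by transcript length and scales every dish to the same total. The read depth of a dish is not kept, so no counting interval can be given. Per the study's methods, control and exposed cells were prepared together out of a single batch. The p-values measure only the spread between dishes of this line, and whether the dishes stand for more than that batch is not given. In bulk RNA, fewer cells of a type and less RNA per cell cannot be told apart. Transcripts of the mitochondrial genome took 8.94% ± 0.34 of all TPM in control dishes and 7.04% ± 0.76 in Opti-ELF-WMF dishes (SD, n = 4 each). With near-identical nuclear copies of these genes the shares were 14.08% ± 0.45 and 11.19% ± 1.13. The total moves every other value with these shares. Opti-ELF-WMF replicate 2 had the lowest share, 5.99% without the copies and 9.61% with them. Of 8 hepatocyte markers 7 had a mean of at least 1 TPM, and their summed level was 4611 to 4832 TPM in control dishes and 4900 to 5148 TPM in Opti-ELF-WMF dishes, most of it from the keratins Krt8 and Krt18. Alb, the albumin gene, had the other direction, 55.1 ± 2.7 TPM in control and 49.7 ± 3.1 TPM in Opti-ELF-WMF dishes (SD, n = 4 each; limma adjusted p = 0.210), and Apoa1, Ttr and Afp were also below 0, by -0.22, -0.039 and -0.088 on the log2 scale. Afp was near 1 TPM. None of 5 fibroblast and stellate cell markers and none of 4 endothelial markers had a mean of 1 TPM, and of 4 macrophage markers Cd68 had. Lrat, Adgre1 and Cdh5 were listed at 0 in every dish. The sums were 0.36 to 1.52 and 0.37 to 1.16 TPM for the fibroblast markers in control and Opti-ELF-WMF dishes, 1.60 to 2.34 and 1.20 to 1.81 TPM for the macrophage markers, and at most 0.09 TPM for the endothelial markers.

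Sequence upstream of Gars and Tars is shown because it holds the core of the amino acid response element, TGATGNAA, searched on both strands in the 250 bases before the RefSeq start (GRCm38.p6). The capitals mark the match, which in both lies on the strand opposite to the gene and is therefore read here as its complement. Each line is printed 5′ to 3′ on the strand of the gene.

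Gars, chr6:55037931-55038000, plus strand: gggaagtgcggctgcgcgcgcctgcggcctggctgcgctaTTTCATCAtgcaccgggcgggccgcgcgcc
Tars, chr15:11399666-11399713, minus strand: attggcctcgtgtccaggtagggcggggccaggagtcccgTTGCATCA

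The match began 30 bases before the RefSeq start in Gars (glycine) and 15 bases before it in Tars (threonine). Another match began 112 bases before the RefSeq start of Aars (alanine), but the Aars gene of GENCODE M21 begins further upstream, at chr8:111033144, so this match lies inside the annotated gene and its sequence is not printed. Over all genes with a window, 3.91% of 27025 held it. Windows were at hand for 13 of the 20 cytosolic genes, under 80%, so a share over that list is void. None of the 14 mitochondrial genes with a window held the letters, which says nothing of the factor.

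All 36 genes passed the abundance filter of 1 TPM in at least 4 dishes. The cytosolic enzymes were abundant, with a median of 124 TPM over the 8 dishes and a range from 40.4 TPM for Yars to 348 TPM for Nars. The mitochondrial enzymes had a median of 18.6 TPM and ran from 3.81 TPM for Mars2 to 341 TPM for Lars2. The median of all tested genes was 21.9 TPM, so the cytosolic enzymes sat high in the distribution and most mitochondrial enzymes in its middle or below. Dishes of a group differed less for the cytosolic genes, whose median coefficient of variation was 2.73%, against 6.17% for the mitochondrial genes and 5.77% for all tested genes. Spread fell with abundance over all tested genes. The median SE of the log2 difference was 0.113 at 1 to 5 TPM and 0.032 at 100 to 350 TPM.

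**Figure D1:**
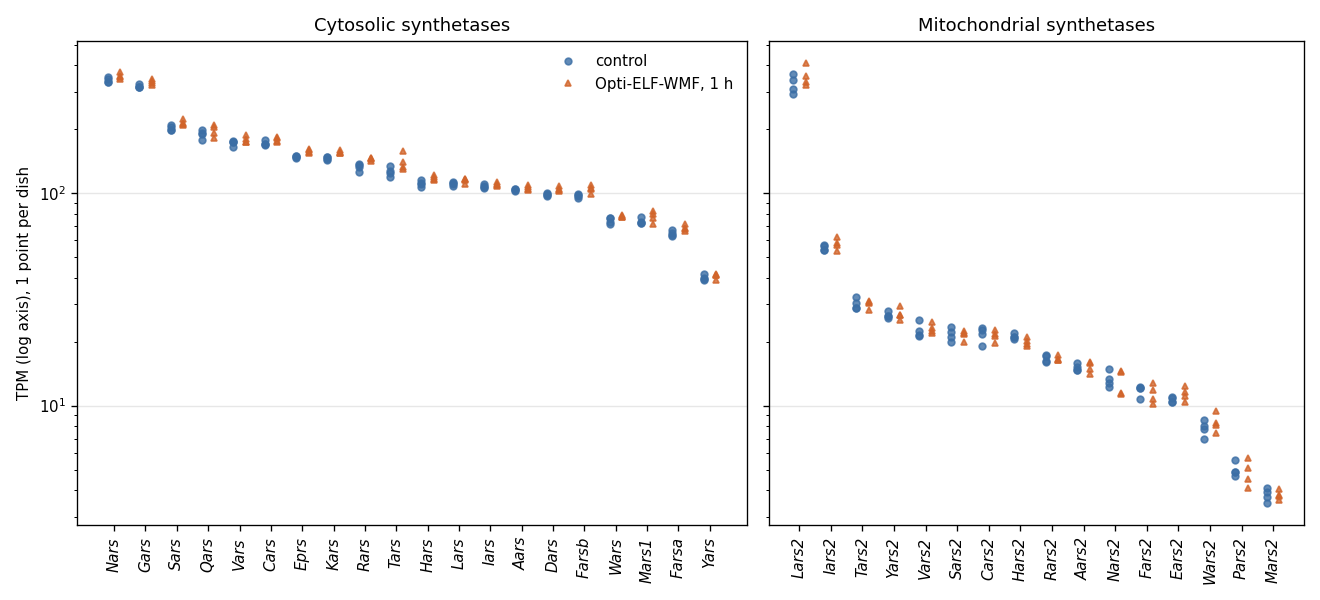
TPM of each synthetase gene in each dish on a log axis, with control dishes as circles and Opti-ELF-WMF dishes as triangles, ordered by mean level. The cytosolic genes run from 40.4 to 348 TPM, and Lars2 at 341 TPM stands apart from the other 15 mitochondrial genes, which reach 56.6 TPM.

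At the top of the cytosolic order, Nars, which charges asparagine, was read at 333, 343, 333 and 351 TPM in control replicates 1 to 4 and at 344, 371, 351 and 354 TPM in Opti-ELF-WMF replicates 1 to 4. The ranges met, and the difference on the log2(TPM + 1) scale was 0.062 (SE 0.029, limma adjusted p = 0.348). Mars1, for methionine, was near the bottom, with 72.6, 73.1, 77.6 and 72.0 TPM in control and 76.4, 82.2, 71.5 and 79.5 TPM in exposed dishes. Yars, for tyrosine, was the lowest, with 39.1, 39.7, 41.4 and 39.3 TPM in control and 39.1, 41.3, 41.3 and 41.7 TPM in exposed dishes. In both of these genes an exposed dish lay within or below the control range.

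No gene of the 12122 tested passed an adjusted p under 0.05 (limma, 0%), synthetases included. At an unadjusted p under 0.05, 1451 genes (12.0%) were higher and 443 (3.65%) were lower in Opti-ELF-WMF dishes. Against that background, 10 of the 20 cytosolic enzymes were higher at an unadjusted p under 0.05 and none was lower, while none of the 16 mitochondrial enzymes reached it in either direction. Without control replicate 2, 5 of the 36 synthetases reached it, beside 1164 higher and 375 lower of the 12122 tested genes. The log2 difference was above 0 for 20 of 20 cytosolic enzymes, with a median of 0.067 and a range of 0.034 to 0.14. Once mitochondrial transcripts and their nuclear copies were left out of the total, 17 of 20 were above 0. In that rescaling 4764 of 12098 tested genes were above 0. As deposited, the difference was above 0 for 7 and below 0 for 9 of the 16 mitochondrial enzymes. They had a median of -0.0018 and a range of -0.081 to 0.12. Their mean, 0.0093, had the other sign than their median. Among all tested genes 63.7% were above 0, with a median of 0.026.

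**Figure D2:**
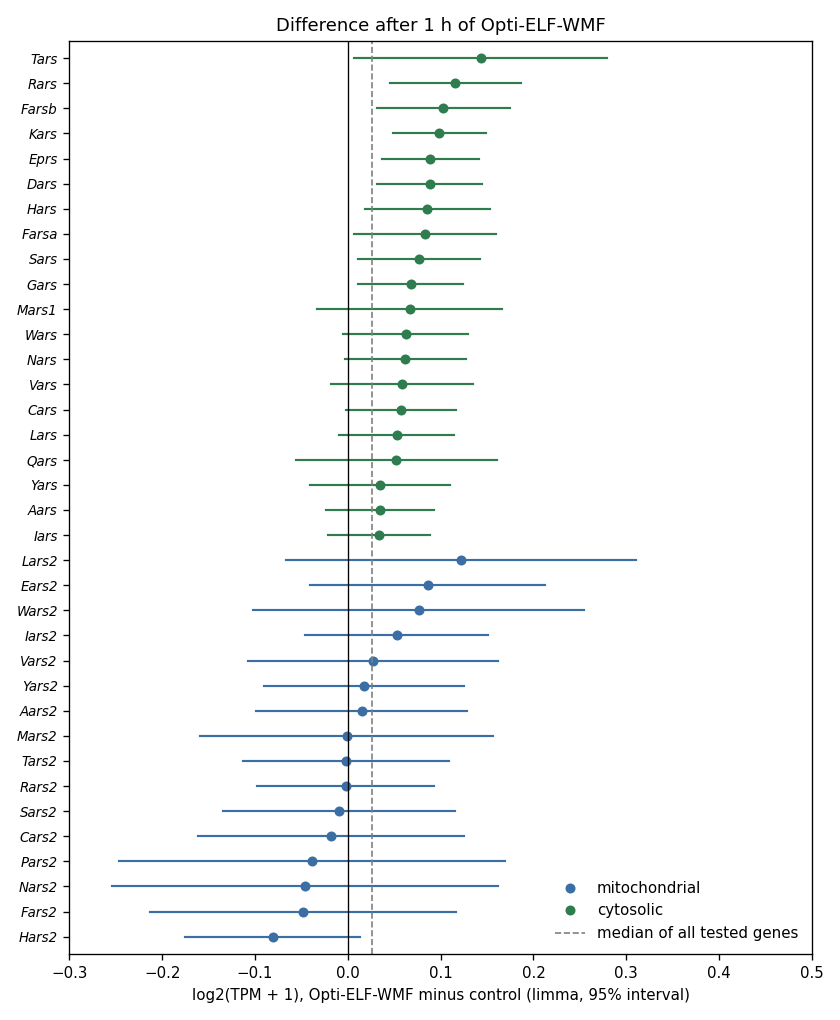
Difference in log2(TPM + 1), Opti-ELF-WMF minus control, for each synthetase gene (points, limma estimate from 4 dishes a group; bars, 95% interval), with the median of all tested genes, 0.026, as a dashed line. All 20 cytosolic points lie above 0 (17 with mitochondrial transcripts and their copies left out of the total) and 10 of their intervals exclude it, and all 16 mitochondrial intervals hold 0. Among all tested genes 63.7% were above 0, and 4764 of 12098 with these transcripts and copies left out.

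The intervals of the mitochondrial genes were wide. All 16 held 0, and 15 of the 16 also held the cytosolic median of 0.067, so for these single genes a difference of the cytosolic size was not detectable. The median SE was 0.030 for the cytosolic and 0.058 for the mitochondrial genes. It was 0.037 for all tested genes within the abundance range of the cytosolic enzymes. Within the range of the mitochondrial enzymes without Lars2 it was 0.057. Summed over the list, cytosolic synthetase RNA was 2828 ± 25 TPM in control and 2977 ± 69 TPM in Opti-ELF-WMF dishes (SD, n = 4 each), 5.27% higher. The mitochondrial sum was 610 ± 33 TPM and 641 ± 46 TPM, 5.06% higher, most of it Lars2, and without Lars2 it was 284 ± 5.4 TPM and 285 ± 9.5 TPM, 0.57% higher.

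Abundance moved with the difference over all genes. Tested genes between 1 and 5 TPM had a median log2 difference of -0.023, those from 20 to 40 TPM had 0.025, and those from 100 to 350 TPM had 0.056. Of the 3579 tested genes within the range of the cytosolic enzymes, 80.7% were above 0, with a median of 0.046, and 23.6% were higher at an unadjusted p under 0.05. Of the 7242 within the range of the mitochondrial enzymes without Lars2, 61.2% were above 0, with a median of 0.020. Set beside the median of their own abundance step, 15 of 20 cytosolic genes lay above it and 5 below, by a median of 0.021, and 7 of 16 mitochondrial genes lay above and 9 below, by a median of -0.010. The part of abundance in the contrast between both lists was not tested.

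**Figure D3:**
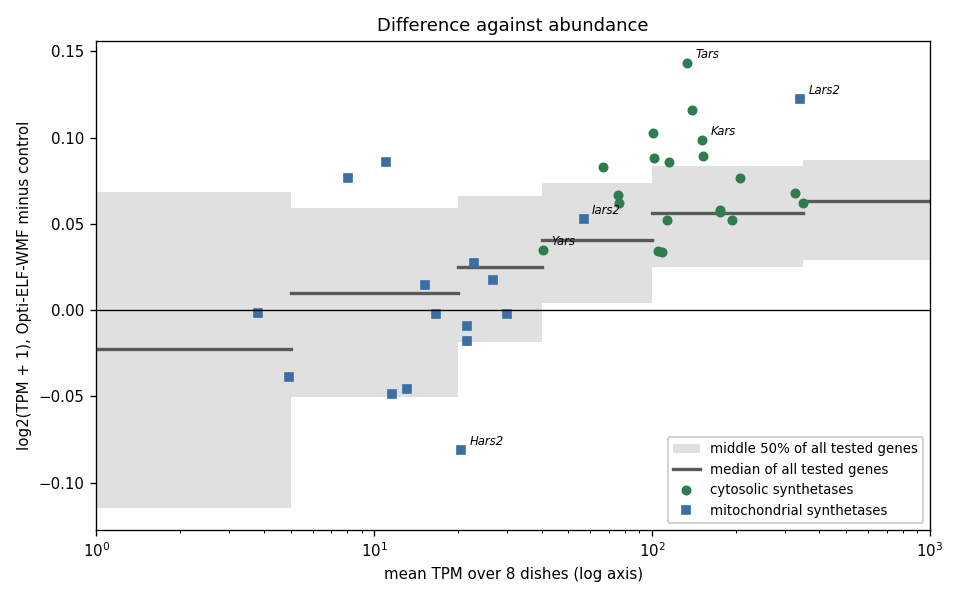
Difference in log2(TPM + 1), Opti-ELF-WMF minus control, against mean TPM (log axis, the last step cut at the axis end), with the median of all tested genes in 6 abundance steps as dark lines and their middle 50% in grey. The medians climb from -0.023 at 1 to 5 TPM to 0.063 above 350 TPM, and 15 of the 20 cytosolic genes lie above the median of their step.

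In 971 tested genes (8.01%) every Opti-ELF-WMF dish was above every control dish, and in 225 (1.86%) every one was below. Among the synthetases 6 cytosolic genes had the first pattern and none had the second. Of all tested genes within the abundance range of the cytosolic enzymes, 15.4% had the first pattern. Lysyl-tRNA synthetase, Kars (ENSMUSG00000031948, chr8:111993443-112011323, minus strand), was read at 145, 147, 144 and 148 TPM in control and at 156, 159, 155 and 155 TPM in Opti-ELF-WMF dishes. Its difference of 0.098 (SE 0.022, limma adjusted p = 0.122) had the smallest adjusted p of the synthetases. Eprs, the fused enzyme for glutamic acid and proline (ENSMUSG00000026615, chr1:185363044-185428360, plus strand), had 146, 147, 149 and 150.2 TPM in control and 154, 160.3, 159 and 156 TPM in exposed dishes. That is a difference of 0.089 (SE 0.023, limma adjusted p = 0.140).

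Rars, which charges arginine (ENSMUSG00000018848, chr11:35808381-35834506, minus strand), had 138, 133, 126 and 136 TPM in control and 146, 147, 144 and 141 TPM in exposed dishes, a difference of 0.12 (SE 0.031, limma adjusted p = 0.142). Dars, for aspartic acid (ENSMUSG00000026356, chr1:128363707-128417368, minus strand), had 99.9, 97.5, 96.8 and 98.8 TPM in control and 104, 104, 108 and 102 TPM in exposed dishes, a difference of 0.088 (SE 0.025, limma adjusted p = 0.160). Kars, Eprs, Rars and Dars all belong to the multi-synthetase complex. Farsb, the beta subunit for phenylalanine (ENSMUSG00000026245, chr1:78417975-78488897, minus strand), had 98.8, 98.3, 96.4 and 95.1 TPM in control and 104, 105, 109 and 99.1 TPM in exposed dishes, a difference of 0.10 (SE 0.032, limma adjusted p = 0.177). Wars, for tryptophan (ENSMUSG00000021266, chr12:108860030-108894174, minus strand), had 73.3, 71.6, 76.7 and 76.6 TPM in control and 77.2, 77.8, 79.0 and 77.4 TPM in exposed dishes. The gap between the highest control and the lowest exposed dish was narrow in Farsb and in Wars, whose difference was 0.062 (SE 0.030, limma adjusted p = 0.358).

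The other 5 genes with an unadjusted p under 0.05 had dishes that overlapped. Tars had the largest difference of the 36, 0.14 (SE 0.061, limma adjusted p = 0.298), with 134, 125, 119 and 127 TPM in control and 132, 158, 140.4 and 130.1 TPM in exposed dishes. Opti-ELF-WMF replicate 2 stood highest, and 2 of the exposed dishes lay below control replicate 1. Gars had 325, 317, 315 and 314 TPM in control and 338, 343, 328 and 324 TPM in exposed dishes, a difference of 0.068 (SE 0.025, limma adjusted p = 0.238). Hars, for histidine, had 116, 107, 111 and 111 TPM in control and 116, 121, 119 and 116 TPM in exposed dishes, a difference of 0.086 (SE 0.030, limma adjusted p = 0.212). In Gars and Hars the overlap came from control replicate 1 alone. Sars, for serine, had 205, 198, 197 and 209 TPM in control and 211, 222, 208 and 213 TPM in exposed dishes, a difference of 0.077 (SE 0.029, limma adjusted p = 0.248). Farsa, the alpha subunit for phenylalanine, had 67.1, 62.9, 63.4 and 65.2 TPM in control and 68.5, 71.7, 66.1 and 67.8 TPM in exposed dishes, a difference of 0.083 (SE 0.034, limma adjusted p = 0.281). Farsa and Farsb, which form 1 enzyme, differed by 0.083 and 0.10. Of the 3 genes with the amino acid response core, Aars had the smallest difference, 0.035 (SE 0.026, limma adjusted p = 0.571), and Tars the largest.

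The cytosolic list was also divided by structure. The 8 genes of the multi-synthetase complex had a median difference of 0.077, with 4 at an unadjusted p under 0.05, and the 12 outside it had 0.065, with 6. The 10 class II enzymes had a median of 0.084 and the 10 class I enzymes 0.058. Eprs, the fused enzyme, was placed in class I by its glutamic acid part alone. At an unadjusted p under 0.05, 8 class II and 2 class I genes were higher, Eprs and Rars being the class I genes. These counts were 4 and 4 without control replicate 3, and 3 and 2 without control replicate 2. Among exposed dishes, they were 7 and 4 when replicate 1 was left out and 4 and 2 when replicate 2 was. Of 12122 tested genes, 1234, 1164, 1625 and 1066 were higher at that threshold with these dishes left out in that order. Testing every gene above 0 gave 7 and 4, beside 1733 of 25413 genes. After median-of-ratios scaling, which sets dishes to a like level over the typical gene, the counts were 3 and 2. Of these, 4 were inside the complex and 1 outside it, beside 6.79% of all tested genes. Outside the complex 1 was left without control replicate 2, 4 without control replicate 3 and 2 without Opti-ELF-WMF replicate 2. The difference between classes was not tested.

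Scaling changed the counts. After median-of-ratios scaling, 6.79% of tested genes were higher and 5.52% lower at an unadjusted p under 0.05, 52.8% were above 0, and 4.58% had every exposed dish above every control dish. The cytosolic list then had a median difference of 0.045 with 20 of 20 above 0, 5 at an unadjusted p under 0.05 and 2 without overlap, Kars and Eprs, beside a median of 0.0050 for all tested genes. Tested genes within the abundance range of the cytosolic enzymes then had a median of 0.024. Of these, 67.8% were above 0 and 12.7% higher at an unadjusted p under 0.05. The mitochondrial list had a median of -0.022, with 5 above and 11 below 0, and 1 gene, Hars2, was lower at an unadjusted p under 0.05. When transcripts of the mitochondrial genome and their nuclear copies were taken out before rescaling, a scaling chosen after seeing the data, the cytosolic median was 0.020 with 17 above 0 and 3 below, Aars, Iars and Yars, and the mitochondrial median was -0.044. All tested genes then had a median of -0.018, with 4764 of 12098 above 0. The difference between the medians of both lists was 0.069 as deposited and 0.064 to 0.066 under the other scalings. Each scaling multiplies all values of a dish by the same factor. That moves both lists nearly alike, so this difference could hardly change with scaling. Without control replicate 3 the difference between the medians was 0.046.

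Per dish, the mean log2(TPM + 1) of the 20 cytosolic genes was 6.99, 6.97, 6.97 and 6.98 in control and 7.02, 7.09, 7.04 and 7.04 in Opti-ELF-WMF dishes. Every exposed dish was above every control dish. Opti-ELF-WMF replicate 2, the dish with the smallest share of mitochondrial transcripts, was the highest of the 8 in 13 of the 20 genes, and without it the median difference was 0.056. The 16 mitochondrial genes had means of 4.31, 4.31, 4.36 and 4.31 in control and 4.28, 4.38, 4.30 and 4.36 in exposed dishes, which overlapped. After median-of-ratios scaling the cytosolic means lay between 6.97 and 7.01 in control and between 7.03 and 7.05 in exposed dishes.

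**Figure D4:**
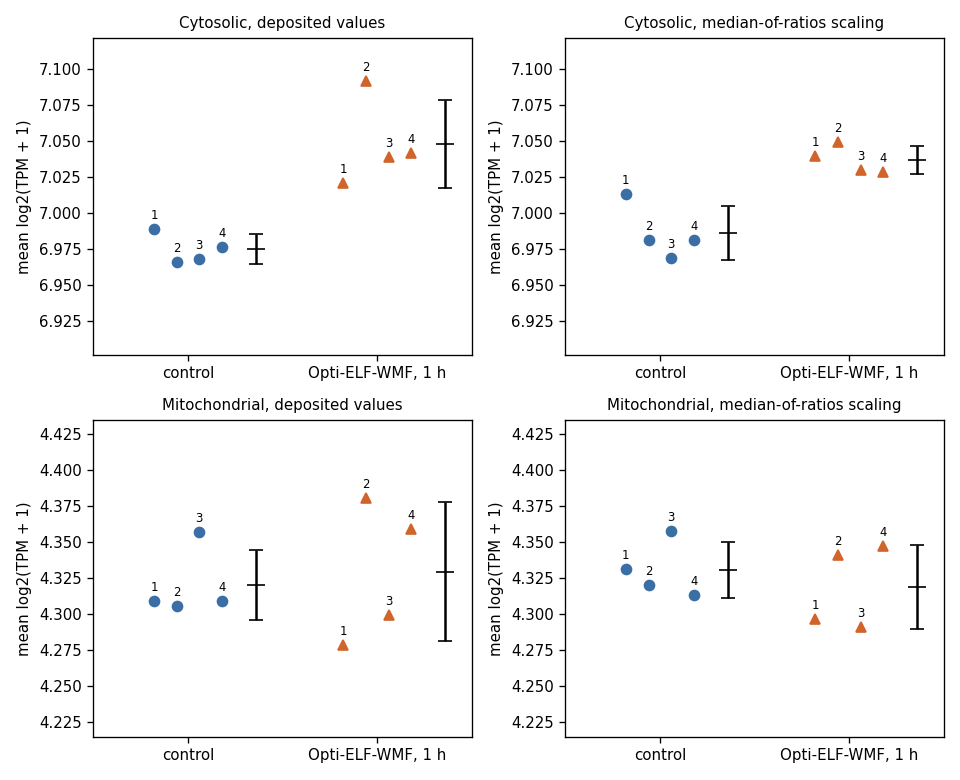
Mean log2(TPM + 1) over the 20 cytosolic (top) and 16 mitochondrial (bottom) genes in each dish, numbered by replicate, as deposited (left) and after median-of-ratios scaling (right), with the mean and SD of 4 dishes as black bars. The cytosolic means of the Opti-ELF-WMF dishes lie above those of all control dishes on both scales, and the mitochondrial means overlap.

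Lars2, the mitochondrial leucine enzyme, was read far above the other mitochondrial genes, at 362, 293, 342 and 308 TPM in control and 322, 356, 333 and 411 TPM in Opti-ELF-WMF dishes. Its dishes spread widely and overlapped, with a coefficient of variation of 10.5% and a difference of 0.12 (SE 0.084, limma adjusted p = 0.530). Leaving it out moved the mitochondrial median to -0.0022. Iars2, for isoleucine, came next, with 57.1, 56.7, 54.2 and 54.3 TPM in control and 53.5, 61.9, 57.3 and 58.2 TPM in exposed dishes. Iars2 shares 2034 bases with Rab3gap2 on the opposite strand, which was read at 21.3 to 23.0 TPM. The library kit marks strand, but the strand setting of the counting is not given in the sources used here, so part of either value may belong to the other. Tars2, for threonine, had 28.7, 28.7, 32.5 and 30.5 TPM in control and 30.5, 30.7, 28.1 and 30.9 TPM in exposed dishes.

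The lowest mitochondrial genes were Wars2, Pars2 and Mars2. Wars2 had 6.95, 7.78, 8.59 and 8.00 TPM in control and 7.45, 9.42, 8.11 and 8.28 TPM in exposed dishes. Pars2, for proline, had 5.55, 4.89, 4.64 and 4.87 TPM in control and 4.51, 5.68, 4.10 and 5.11 TPM in exposed dishes. Mars2 had 3.47, 3.94, 4.11 and 3.72 TPM in control and 3.58, 3.79, 3.77 and 4.07 TPM in exposed dishes. Their groups overlapped throughout.

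For 16 mitochondrial enzymes the cytosolic enzyme of the same amino acid could be set beside them, on the TPM scale, which is per length. The cytosolic gene was the more abundant in every dish for 15 of the 16, by a median ratio of 7.79. Leucine was the exception, where Lars was read at 0.34 ± 0.03 of Lars2 in control dishes (SD, n = 4). From control to exposed dishes 12 ratios were higher and 4 lower, by -0.070 to 0.17 on the log2 scale with a median of 0.073.

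Histidine was the pair whose ratio did not overlap between groups, a description chosen after its values were seen. Hars2 was read at 20.5, 21.1, 22.0 and 21.0 TPM in control and 19.2, 21.1, 20.03 and 19.5 TPM in Opti-ELF-WMF dishes, a difference of -0.081 (SE 0.042, limma adjusted p = 0.396). Hars to Hars2 was 5.65, 5.08, 5.03 and 5.28 in control and 6.03, 5.74, 5.96 and 5.95 in exposed dishes. After median-of-ratios scaling every exposed dish of Hars2 was below every control dish, with a difference of -0.10 (limma adjusted p = 0.292). Both genes start next to each other on chromosome 18 on opposite strands, and their annotated 5′ parts overlap by 198 bases.

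Genes that work with the synthetases were read from lists. Of the 3 scaffold proteins of the multi-synthetase complex, Aimp2 had every exposed dish above every control dish, 79.6 ± 3.3 TPM in control and 87.7 ± 4.0 TPM in exposed dishes (SD, n = 4 each), a difference of 0.14 (limma adjusted p = 0.170). The gap was narrow, from 82.04 TPM in control replicate 1 to 82.12 TPM in Opti-ELF-WMF replicate 4. After median-of-ratios scaling the dishes of Aimp2 overlapped. Of tested genes from 40 to 100 TPM, where Aimp2 lay, 11.3% had every exposed dish above every control dish. At an unadjusted p under 0.05, 17.6% of them were higher, and 34.8% of those from 100 to 350 TPM, where Aimp1 lay. Aimp1 differed by 0.083 and was also under the unadjusted threshold, and Eef1e1 differed by -0.019. Of 7 other charging enzymes, among them Tarsl2 and the subunits Gatb, Gatc and Qrsl1 that make mitochondrial glutaminyl-tRNA, 4 were above and 3 below 0 and none had an unadjusted p under 0.05, and after median-of-ratios scaling 2 were above and 5 below. Of 3 proofreading enzymes, which clear mischarged tRNA, 1 was under the unadjusted threshold as deposited. This was Prorsd1 at 16.7 ± 1.1 and 19.1 ± 1.4 TPM (SD, n = 4 each), a difference of 0.18 (limma adjusted p = 0.212). From 5 to 20 TPM, where Prorsd1 lay, 4.45% of tested genes were higher at that threshold. After median-of-ratios scaling the dishes of Prorsd1 overlapped. Without mitochondrial transcripts and their copies no scaffold or proofreading gene reached the threshold.

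All 8 genes of tRNA processing and export were above 0, beside 63.7% of all tested genes. At an unadjusted p under 0.05, 2 were higher, the tRNA ligase Rtcb and the La protein gene Ssb, beside 12.0% of all tested genes. Without mitochondrial transcripts and their copies 7 were above 0, beside 4764 of 12098 tested genes, and none reached the unadjusted threshold. After median-of-ratios scaling 1 reached it, beside 6.79% of all tested genes. All 6 genes of elongation factors that carry charged tRNA to ribosomes, or recharge the carrier with GTP, were above 0, with a median of 0.081 and 4 at an unadjusted p under 0.05, and 2 after median-of-ratios scaling. Eef1b2 was read at 1715 ± 22 TPM in control and 1860 ± 63 TPM in exposed dishes (SD, n = 4 each), a difference of 0.12 (limma adjusted p = 0.122). Eef1a1, Eef1b2, Eef1d and Eef1g were above 350 TPM, where 48.6% of tested genes were higher at an unadjusted p under 0.05. Tufm, at 169 TPM and also under that threshold, and Tsfm, at 36.5 TPM, are the mitochondrial factors of this list. From 100 to 350 TPM the share of tested genes was 34.8%.

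The amino acid response list of 12 genes had a median of 0.057, with 12 above 0 and 5 at an unadjusted p under 0.05, beside 63.7% above 0 and 12.0% higher among all tested genes. Of these 5, Atf4, Phgdh, Slc3a2 and Psat1 were read at 306 to 476 TPM and Trib3 at 22.1 TPM. From 100 to 350 TPM, 86.6% of tested genes were above 0 and 34.8% higher at that threshold. Above 350 TPM the shares were 86.6% and 48.6%. Phgdh, the first enzyme of serine synthesis, was 397 ± 19 TPM in control and 443 ± 7.1 TPM in exposed dishes (SD, n = 4 each), a difference of 0.16 (limma adjusted p = 0.122). Atf4 itself was 300.3 ± 3.7 TPM and 313 ± 3.2 TPM, a difference of 0.058 (limma adjusted p = 0.217). The stress targets Ddit3 and Chac1 and the asparagine synthetase gene Asns differed by 0.064, 0.045 and 0.052 and did not reach the unadjusted threshold. After median-of-ratios scaling the median was 0.034, with 3 at an unadjusted p under 0.05. Without mitochondrial transcripts and their copies 10 were above and 2 below 0, with 1 at an unadjusted p under 0.05. Of 12098 tested genes 4764 were then above 0 and 400 higher at that threshold. The 22 tRNA genes of the mitochondrial genome were listed at 0 in every dish.

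Some values rest on shared sequence. At 95% identity or more over at least 300 bases, Iars shares 1656 bases with Gm4849, read at 0 to 0.09 TPM, and Aars shares 1326 bases with Exosc6, listed at 0. On opposite strands Fars2 overlaps Nrn1, at 1.40 to 2.05 TPM, and Vars2 overlaps Gm20483, at 0 to 0.18 TPM. Lars2 had no match at these limits. Matches under 300 bases were not kept, and no ribosomal RNA reference was at hand, so its high value was not checked for such shared sequence.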

How the data were processed

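Total RNA of 4 control and 4 Opti-ELF-WMF dishes was sequenced by the authors after stranded poly(A) library preparation. The authors deposited TPM values for 55401 genes, 1 table per dish. The submitters' processing notes name Trimmomatic 0.39, STAR 2.7.4a, RSEM 1.3.3 and mm10, and the annotation is not given in the sources used here. TPM keeps no depth. Symbols and positions came from GENCODE M21 (GRCm38), and upstream sequence from RefSeq (GRCm38.p6).

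Genes with TPM of at least 1 in at least 4 dishes (12122) were compared on log2(TPM + 1) with limma 3.58.1 (trend, R 4.3.3) and Benjamini-Hochberg adjustment. This scale understates differences of low genes. The fit was tested on simulated data. Shared sequence was found with BLAST 2.17.0, and 11 nuclear genes were copies of mitochondrial genes (95% identity over 80% of their length). Alternatives were the pseudocount, filter, scaling, replicate block and leaving out each dish. No 2 dishes shared more than 3.79% of values.

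The members and lists were chosen with earlier results of these data known. Values per dish were given for synthetases with an unadjusted p under 0.05 or groups that do not overlap, and for the 3 highest and 3 lowest of each list. One gene of the list of other charging enzymes is not reported here.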

Additional observations from a re-analysis of the deposited data

Results flagged for a closer look

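A single dish stood apart from the other 3 of its group in 4 of 72 groups of 4 dishes, by Dixon's test at its 95% limit, and chance flags about 3.6 of them. Yars was 39.14 TPM in Opti-ELF-WMF replicate 1 and 41.28 to 41.68 TPM in the other dishes of that group. Fars2 was 10.75 TPM in control replicate 3 and 12.04 to 12.20 TPM in the others. Rars2 was 17.25 TPM in Opti-ELF-WMF replicate 4 and 16.35 to 16.48 TPM in the others. Tars2 was 28.10 TPM in Opti-ELF-WMF replicate 3 and 30.48 to 30.93 TPM in the others.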

How the results depend on the processing

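With a pseudocount of 0.1, with every gene above 0 tested, and with the replicate block, no gene was called and all 36 synthetases kept their direction. The filter and the replicate block leave the estimated difference of a gene as it was. Of these settings only the pseudocount could have turned a direction. Synthetases with an unadjusted p under 0.05 numbered 10 as deposited and with a pseudocount of 0.1, 11 with every gene above 0, and 9 with the replicate block. Among all tested genes 1449 were higher and 444 lower with that pseudocount, and 1430 and 459 with the block. With every gene above 0 they were 1733 and 832 of 25413. The correlation of deviations between same-numbered dishes ran from -0.042 to 0.026, none over 0.1, so no pairing was seen in the values. Whether same-numbered dishes were handled together is not given by the labels. Median-of-ratios scaling called 1 gene, no synthetase, and left 6 synthetases under the unadjusted threshold, 5 higher and Hars2 lower, with Aars2 at -0.0066 and Yars2 at -0.0046. Rescaling without mitochondrial transcripts left 6, again 5 higher and Hars2 lower, a cytosolic median of 0.038, and Aars2 at -0.013, Vars2 at -0.0014 and Yars2 at -0.011. Rescaling without these and their nuclear copies, added after seeing the data, called 1 gene and left 3, 2 higher and Hars2 lower, with a cytosolic median of 0.020, a mitochondrial median of -0.044, and Aars at -0.013, Iars at -0.013, Yars at -0.012, Aars2 at -0.030, Vars2 at -0.019 and Yars2 at -0.029. Genes higher and lower at an unadjusted p under 0.05 were 1451 and 443 as deposited, 823 and 669 with median-of-ratios scaling, 693 and 675 without mitochondrial transcripts, and 400 and 940 without the copies as well. The cause was not tested.

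Leaving out each dish gave 0 to 2 called genes (2 without control replicate 2, 1 without control replicate 3) and 5 to 12 synthetases under the unadjusted threshold (5 without control replicate 2). The cytosolic median ran from 0.056 to 0.079, the mitochondrial from -0.015 to 0.027, and their difference from 0.046, without control replicate 3, to 0.086. The sign turned in 10 mitochondrial genes, whose differences ran from -0.0099 to 0.048 in Aars2, -0.073 to 0.018 in Cars2, -0.036 to 0.028 in Mars2, -0.10 to 0.0081 in Nars2, -0.11 to 0.025 in Pars2, -0.020 to 0.017 in Rars2, -0.047 to 0.026 in Sars2, -0.024 to 0.034 in Tars2, -0.0052 to 0.080 in Vars2 and -0.021 to 0.047 in Yars2. Without Lars2 the mitochondrial median was -0.0022. TPM keeps no depth, so the counting error of low genes such as Mars2 is unknown.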
